A study of Homo sapiens with 9 samples.

Results

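The genes described here are 10 transcription factor and early response genes: FOS, FOSB, FOSL1, FOSL2, JUN, JUNB, JUND, ATF3, EGR1 and IER3. They were listed by name as AP-1 subunits and early response genes, with no threshold on their values but with earlier results of these data known, and are 10 of the 62666 genes in the expression tables, with 1 row each. Polyadenylated RNA was sequenced in 9 libraries, 3 per line, from 3 related human breast epithelial lines that were compared to follow expression along breast cancer progression. MCF10A, which does not form tumours, was grown with 5% horse serum. MCF10AT1, derived from MCF10A with an activated HRAS gene, was grown with 2.5% horse serum. MCF10Ca1a, which forms tumours and descends from the same RAS-transformed lineage through xenografts, was grown with 5% horse serum. All 3 media held epidermal growth factor at 20 ng/mL, hydrocortisone at 500 ng/mL, insulin at 10 µg/mL and cholera toxin at 100 ng/mL, and no line was given a stimulus before harvest that the labels name. Serum and line cannot be told apart in any comparison with MCF10AT1. Each stage is represented by 1 line, and the labels do not say whether the replicates were separate cultures, so p-values measure the spread between these samples, which may be technical.

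AP-1 is a dimeric transcription factor. A FOS family protein (FOS, FOSB, FOSL1 or FOSL2) pairs with a JUN family protein (JUN, JUNB or JUND) through a leucine zipper, and the paired basic regions bind DNA, whereas JUN proteins can also pair with each other or with ATF3. FOS, FOSB, JUN, JUNB, ATF3, EGR1 and IER3 are immediate early genes, transcribed within minutes of growth factor or stress signalling from factors already present in the cell, and FOSL1 and FOSL2 typically follow as slower and more lasting products of the same signalling. EGR1 is a zinc finger factor and IER3 a small protein linked to cell survival. In mammary epithelium these genes are known as readouts of receptor and RAS signalling.

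The sequence that the 8 leucine zipper members share is shown first, because it is what makes them a family. Each line gives the 27 coding bases of the 9 codons at the heart of the DNA-binding basic region, found by a search of the coding sequence for asparagine, any pair of residues, 2 alanines, any pair of residues, cysteine or serine, and arginine. Capitals mark the 14 bases that are identical in all 8 genes.
FOS, GRCh38, chr14:75280605-75280631, plus strand: AAtaagaTgGCtGCagCcAAaTGCcGc
FOSB, chr19:45471239-45471265, plus strand: AAtaaacTaGCaGCagCtAAaTGCaGg
FOSL1, chr11:65894050-65894076, minus strand: AAcaagcTgGCtGCggCcAAgTGCaGg
FOSL2, chr2:28408804-28408830, plus strand: AAcaagcTgGCtGCagCcAAgTGCcGg
JUN, chr1:58782261-58782287, minus strand: AAccgcaTcGCtGCctCcAAgTGCcGa
JUNB, chr19:12792603-12792629, plus strand: AAccggcTgGCgGCcaCcAAgTGCcGg
JUND, chr19:18280627-18280653, minus strand: AAccgcaTcGCcGCctCcAAgTGCcGc
ATF3, chr1:212618172-212618198, plus strand: AAtaagaTtGCaGCtgCaAAgTGCcGa
Of the 27 bases, FOSL2 shared 23 with FOS, FOSL1 and ATF3 shared 21, FOSB shared 20 and each JUN gene 18. JUND shared 25 with JUN and JUNB shared 21. These codons lie in the coding exons of the transcript with the most counts of each gene summed over the 9 libraries. Some other transcripts of FOS, FOSB, FOSL1, FOSL2 and ATF3 lack them, and several of these are described further on. In MCF10A such a transcript held more FOSB counts than the one shown.

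The bases just upstream of 3 members are shown because FOS, FOSB and EGR1 each had their highest level in MCF10AT1. They come from RefSeq promoter windows on GRCh38.p14, which matched 8 of the 10 members, and stop before the first exon in GENCODE 29. Capitals mark motif matches.
EGR1, chr5:138465229-138465478, plus strand: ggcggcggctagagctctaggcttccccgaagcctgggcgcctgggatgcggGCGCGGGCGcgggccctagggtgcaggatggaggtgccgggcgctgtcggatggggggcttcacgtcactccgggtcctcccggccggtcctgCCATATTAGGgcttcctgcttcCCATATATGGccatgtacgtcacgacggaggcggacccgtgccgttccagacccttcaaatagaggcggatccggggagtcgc
FOS, chr14:75278578-75278773, plus strand: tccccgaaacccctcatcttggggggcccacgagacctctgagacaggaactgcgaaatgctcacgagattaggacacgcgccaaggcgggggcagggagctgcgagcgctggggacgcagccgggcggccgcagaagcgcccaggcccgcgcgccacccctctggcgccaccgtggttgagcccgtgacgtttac
FOSB, chr19:45467746-45467994, plus strand: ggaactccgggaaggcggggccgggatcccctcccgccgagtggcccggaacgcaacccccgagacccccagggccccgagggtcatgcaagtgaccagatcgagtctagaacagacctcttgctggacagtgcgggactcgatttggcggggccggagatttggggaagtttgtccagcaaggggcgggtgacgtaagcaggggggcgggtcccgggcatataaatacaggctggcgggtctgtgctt
Both strands of the 250 bases before each start were searched. EGR1 held 2 matches to the CArG box, the motif of serum response factor, at positions -105 and -83 from the start of transcription, and such a box occurred in 1.16% of all 35116 windows. EGR1 also held GCGNGGGCG, a motif of EGR proteins themselves, which 8.41% of all windows held. None of the motifs searched matched in the windows of FOS, FOSB, FOSL2 or JUNB, which says only that these letters are not in those bases.

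Matches to TGANNTCA, the longer type of AP-1 and ATF site, stood in the windows of JUN, JUND and ATF3, and 10.1% of all windows held one. The JUND match at position -200 was TGACGTCA, the cyclic AMP response element, which is a case of the same motif and occurred in 1.65% of windows. A second JUND match, TGAGCTCA, lay at position -54. An ATF3 window held TGACATCA at position -123, but that window belongs to an upstream start to which no ATF3 count was assigned. The JUN match lies before the RefSeq start of the window but inside the first exon of JUN-201 in GENCODE 29. The sites of JUN and JUND are given within 30 bases, with the match in capitals.
JUN, GRCh38.p14, chr1:58784096-58784125, minus strand: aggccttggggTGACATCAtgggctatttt
JUND, chr19:18281804-18281833, minus strand: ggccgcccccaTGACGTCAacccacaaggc
The shorter AP-1 site TGANTCA was in 6.57% of all windows and in none of those of the 8 members.

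Library totals ran from 62.9 to 69.5 M estimated counts in MCF10A and MCF10AT1 and from 32.9 to 35.2 M in MCF10Ca1a. All 10 members passed the filter on low counts, as did 17910 genes in all. All 7 epithelial markers (EPCAM, CDH1 and 5 keratins) had at least 10 counts in each line, with a summed level of 2368 to 3236 TPM (transcript abundance scaled to the same total in each library) in MCF10A, 3364 to 3805 TPM in MCF10AT1 and 3956 to 4079 TPM in MCF10Ca1a. The sum hides opposite changes, since 5 markers were called higher and 2 lower in MCF10Ca1a against MCF10A. The 2 were KRT5, at a mean of 1423, 1632 and 420 TPM in MCF10A, MCF10AT1 and MCF10Ca1a, and KRT14, at 205, 38.8 and 4.78 TPM. Of 7 fibroblast markers, COL1A2, COL3A1 and LUM had at most 5 counts in any library, and the list summed to 6.43 to 7.23, 27.7 to 31.5 and 1.94 to 2.33 TPM in the same order, with most of the MCF10AT1 value from DCN. Of 4 immune markers, PTPRC, CD3E and CD79A had at most 6 counts, and the list summed to 7.66 to 9.50, 3.48 to 4.03 and 0.282 to 0.380 TPM. Of 4 endothelial markers, VWF and CDH5 had at most 3 counts, and the list summed to 0.674 to 0.901, 0.868 to 1.32 and 15.6 to 20.8 TPM, the last from PECAM1. Their part in the results was not tested, and in such bulk RNA fewer cells of a type and less RNA per cell cannot be told apart.

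Within each line the members spanned a wide range of TPM, a scale that allows for transcript length. In MCF10A the order of mean TPM was IER3 209, FOS 124, FOSL1 74.8, EGR1 52.6, JUND 49.3, JUNB 42.9, JUN 22.8, FOSL2 16.6, FOSB 8.81 and ATF3 1.99, and the libraries of EGR1, JUND and JUNB overlapped. In MCF10AT1 it was IER3 210.2, FOS 195, EGR1 128, FOSL1 90.2, JUNB 50.9, JUND 47.4, JUN 21.7, FOSL2 20.9, FOSB 15.1 and ATF3 11.2, and the libraries of JUN and FOSL2 overlapped. In MCF10Ca1a the order became IER3 449, JUNB 130.4, FOSL1 101, EGR1 71.7, FOSL2 67.4, ATF3 66.2, FOS 57.9, JUN 46.4, JUND 44.8 and FOSB 5.03, with overlap between FOSL2 and ATF3 and between JUN and JUND. FOS thus went from second place in MCF10A and MCF10AT1 to seventh in MCF10Ca1a, and ATF3 from last place to sixth. The plot of TPM by library shows each value.

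**Figure D1:**
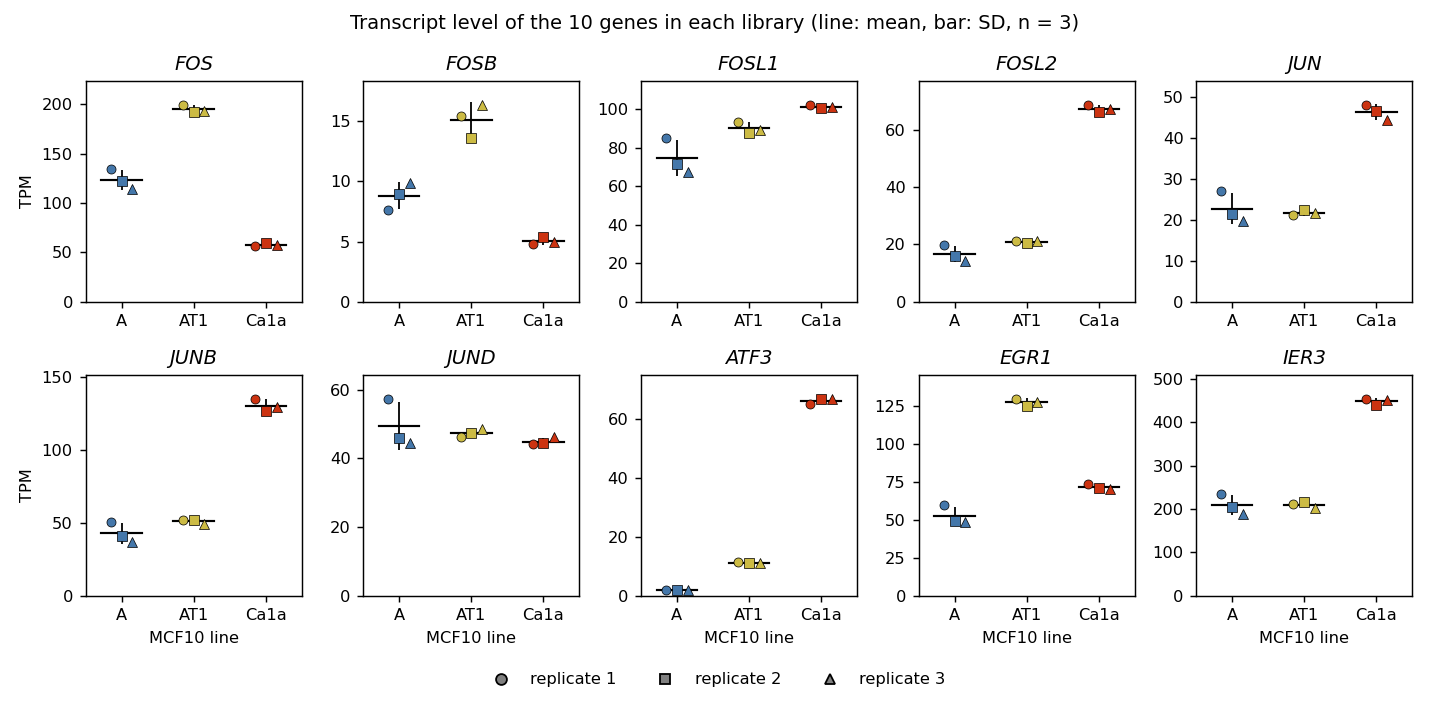
Level of the 10 genes in TPM (vertical axes from 0) in each library of MCF10A (A), MCF10AT1 (AT1) and MCF10Ca1a (Ca1a); symbols mark the replicate number, horizontal lines the mean and vertical bars the SD (n = 3). FOS, FOSB and EGR1 are highest in MCF10AT1, ATF3, FOSL2, JUN, JUNB and IER3 are highest in MCF10Ca1a, and JUND overlaps between MCF10A and each other line.

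MCF10A replicate 1 had the highest TPM of the 3 MCF10A libraries for 8 of the 10 members, and also the highest CPM (counts scaled to library size) for 8. The results with and without it are given where its removal changes a call. Changes between lines are log2 fold changes from edgeR's quasi-likelihood test on estimated counts, each with its standard error (SE), and adjusted p-values are by Benjamini-Hochberg over all 17910 genes, called below 0.05. The 3 comparisons share libraries, so a member's values in them are not independent.

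FOS family members did not move together. FOS, the classic short-lived AP-1 subunit, had 135, 122 and 114 TPM in the MCF10A libraries, 199.8, 193 and 194 TPM in MCF10AT1 and 56.9, 59.2 and 57.6 TPM in MCF10Ca1a. No library of 1 line overlapped those of another, with MCF10AT1 highest and MCF10Ca1a lowest. On the log2 scale, FOS rose by 0.84 (SE 0.0471, edgeR adjusted p 3.22e-09) in MCF10AT1 against MCF10A. It fell by 1.17 on the log2 scale (SE 0.0485, edgeR adjusted p 3.29e-11) in MCF10Ca1a against MCF10A, and by 2.01 (SE 0.0493, edgeR adjusted p 3.89e-13), or 4.01-fold, against MCF10AT1.

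FOSB, a paralog of FOS that also yields a truncated long-lived product, was the least abundant FOS family member in every line. It had 7.64, 8.95 and 9.85 TPM in MCF10A, 15.5, 13.6 and 16.4 TPM in MCF10AT1 and 4.78, 5.34 and 4.96 TPM in MCF10Ca1a. The lines did not overlap and stood in the same order as for FOS. FOSB rose by 1.02 (SE 0.116, edgeR adjusted p 4.21e-06) in MCF10AT1 against MCF10A. In MCF10Ca1a it fell by 0.77 on the log2 scale (SE 0.130, edgeR adjusted p 8.25e-05) against MCF10A and by 1.79 (SE 0.128, edgeR adjusted p 1.30e-08) against MCF10AT1. FOSB overlaps ERCC1, a DNA repair gene on the opposite strand with 4204 to 8654 counts per library. FOSL2, JUNB and IER3 also overlap genes on the other strand. The kit was stranded, but the strand setting of the counting is not given in the sources used here, so reads of overlapping genes cannot be told apart.

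FOSL1, also called FRA1, lacks the strong activation domain of FOS and is known for high levels in invasive breast cells. Its level was 85.3, 71.6 and 67.5 TPM in MCF10A, 93.5, 87.7 and 89.5 TPM in MCF10AT1 and 102.4, 100.5 and 101 TPM in MCF10Ca1a. The lines did not overlap in TPM, with MCF10A lowest and MCF10Ca1a highest. Its log2 rise was 0.42 (SE 0.0558, edgeR adjusted p 1.75e-05) in MCF10AT1 and 0.38 (SE 0.0563, edgeR adjusted p 2.66e-05) in MCF10Ca1a, both against MCF10A. Between MCF10Ca1a and MCF10AT1 the CPM values overlapped, and the log2 difference of -0.05 had a 95% interval from -0.18 to 0.09 (edgeR adjusted p 0.470).

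FOSL2, also called FRA2, had 19.7, 15.8 and 14.3 TPM in MCF10A, 21.0, 20.4 and 21.2 TPM in MCF10AT1 and 68.7, 66.1 and 67.3 TPM in MCF10Ca1a. The 3 MCF10Ca1a libraries stood far above all others, while those of MCF10A and MCF10AT1 lay close without overlap. The log2 rise was 0.50 (SE 0.0664, edgeR adjusted p 1.99e-05) in MCF10AT1 against MCF10A, 1.93 (SE 0.0680, edgeR adjusted p 6.57e-12), or 3.80-fold, in MCF10Ca1a against MCF10A, and 1.43 (SE 0.0669, edgeR adjusted p 1.64e-10) against MCF10AT1.

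The make-up of the FOS family therefore differed between lines. FOS took 55.3 ± 0.777% (SD, n = 3) of the family's summed TPM in MCF10A, 60.7 ± 0.467% in MCF10AT1 and 25.0 ± 0.604% in MCF10Ca1a. FOSL2 took 7.38 ± 0.528%, 6.49 ± 0.108% and 29.1 ± 0.469% in the same order, and FOSL1 33.3 ± 1.01%, 28.1 ± 0.265% and 43.8 ± 0.268%. FOSB stayed at or below 5.11% in every library. FOSL1 and FOSL2 together thus outweighed FOS in MCF10Ca1a, and FOS outweighed them in the other lines. The family's sum was 224 ± 21.1 TPM (SD, n = 3) in MCF10A, 322 ± 7.80 TPM in MCF10AT1 and 232 ± 0.954 TPM in MCF10Ca1a, with overlapping libraries in MCF10A and MCF10Ca1a.

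**Figure D2:**
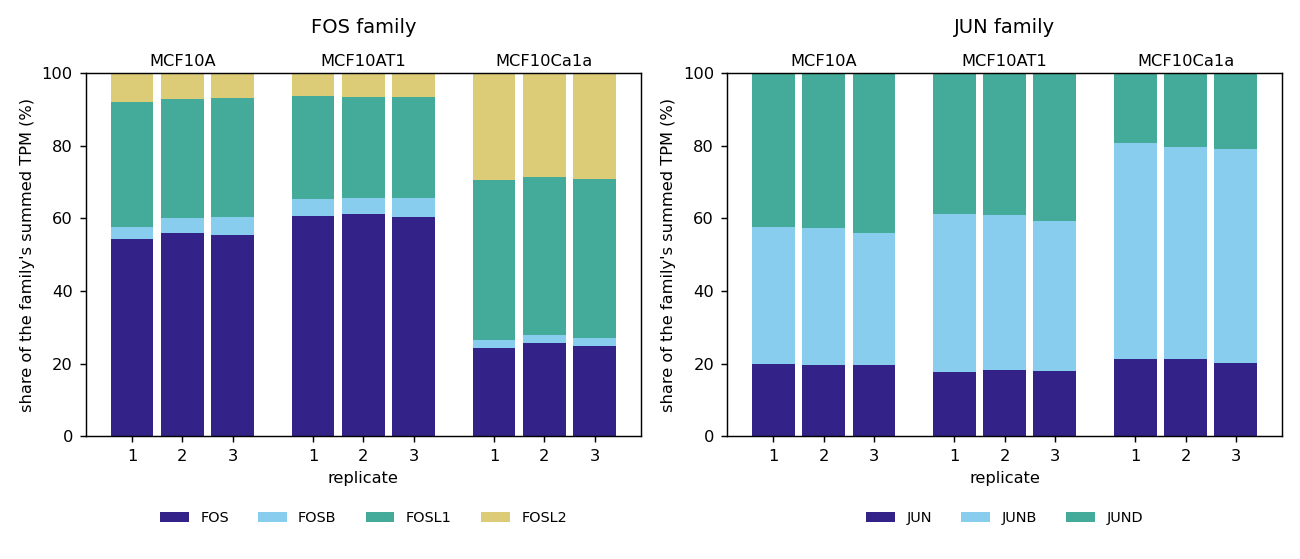
Share of the summed TPM of the FOS family (left) and of the JUN family (right) taken by each gene, in percent, in each of the 9 libraries (horizontal axis, replicates 1 to 3 of each line). FOS falls from 54.4 to 61.3% in MCF10A and MCF10AT1 to 24.4 to 25.6% in MCF10Ca1a, and JUNB takes 58.2 to 59.4% of the JUN family in MCF10Ca1a.

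In the JUN family, JUN, the founding and most strongly activating member, had 27.1, 21.4 and 19.8 TPM in MCF10A, 21.1, 22.3 and 21.6 TPM in MCF10AT1 and 48.2, 46.6 and 44.3 TPM in MCF10Ca1a. The MCF10AT1 libraries lay within the range of MCF10A, and every MCF10Ca1a library was above both. JUN rose by 0.90 (SE 0.0681, edgeR adjusted p 2.07e-08) in MCF10Ca1a against MCF10A and by 0.80 (SE 0.0679, edgeR adjusted p 9.00e-08) against MCF10AT1. The difference of 0.11 between MCF10AT1 and MCF10A was not called (95% interval -0.06 to 0.27, edgeR adjusted p 0.191). Without MCF10A replicate 1 it was 0.19 and was called (edgeR adjusted p 0.00370), and over the 20 alternatives its adjusted p ran from 0.00370 to 0.809.

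JUNB, which can oppose JUN at some promoters, had 50.9, 40.7 and 37.0 TPM in MCF10A, 51.8, 51.9 and 49.1 TPM in MCF10AT1 and 135, 127 and 129 TPM in MCF10Ca1a. On the TPM scale MCF10A replicate 1 reached the level of MCF10AT1, and all MCF10Ca1a libraries were higher. On counts, JUNB rose by 0.45 (SE 0.0668, edgeR adjusted p 5.38e-05) in MCF10AT1 against MCF10A, 1.51 (SE 0.0677, edgeR adjusted p 7.28e-11), or 2.85-fold, in MCF10Ca1a against MCF10A, and 1.06 (SE 0.0668, edgeR adjusted p 3.53e-09) against MCF10AT1. The first of these was 0.25 and not called (limma adjusted p 0.111) on log2(TPM + 1) with all genes above 0. JUNB overlaps HOOK2 on the opposite strand, which had 832 to 1547 counts per library.

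JUND, the JUN gene usually present in resting cells, had 57.3, 46.0 and 44.5 TPM in MCF10A, 46.1, 47.5 and 48.5 TPM in MCF10AT1 and 44.02, 44.3 and 46.1 TPM in MCF10Ca1a, and the libraries of MCF10A overlapped with those of each other line. It was called higher in MCF10AT1 than in MCF10A by 0.16 (SE 0.0656, edgeR adjusted p 0.0469) and lower in MCF10Ca1a by 0.17 on the log2 scale (value -0.17, SE 0.0683, edgeR adjusted p 0.0362). The first call was lost in 13 of 20 alternatives, among them each fit without MCF10A replicate 2 or 3, MCF10AT1 replicate 2 or 3, or MCF10Ca1a replicate 1 or 3 (edgeR adjusted p 0.0538 to 0.228). In the 3 fits on TPM its direction turned (-0.05 on the log2 scale). The second was lost in 10 of 20, among them the fits without MCF10A replicate 1 or MCF10Ca1a replicate 1 or 2 (edgeR adjusted p 0.0590 to 0.167). JUND fell by 0.33 on the log2 scale (SE 0.0682, edgeR adjusted p 0.000541) in MCF10Ca1a against MCF10AT1, a call not made in the 3 fits on TPM.

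JUNB took 37.3 ± 0.639% (SD, n = 3) of the JUN family's summed TPM in MCF10A, 42.4 ± 1.18% in MCF10AT1 and 58.8 ± 0.608% in MCF10Ca1a. JUND went the other way, at 42.9 ± 0.836%, 39.5 ± 1.05% and 20.2 ± 0.809%, while JUN stayed between 17.7% and 21.4% in every library. The family summed to 115 ± 17.9 TPM in MCF10A, 120.0 ± 1.54 TPM in MCF10AT1 and 222 ± 5.12 TPM in MCF10Ca1a. The plot of family shares shows that replicates of a line had nearly the same make-up, including MCF10A replicate 1.

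ATF3, a stress-induced leucine zipper factor that pairs with JUN proteins, showed the widest range of the 10 genes. It had 2.00, 1.91 and 2.06 TPM in MCF10A, 11.5, 11.1 and 11.1 TPM in MCF10AT1 and 64.9, 66.9 and 66.9 TPM in MCF10Ca1a. The lines were separated by wide gaps and the replicates were close. The log2 rise of ATF3 was 2.63 (SE 0.0695, edgeR adjusted p 1.50e-12), or 6.21-fold, in MCF10AT1 against MCF10A. In MCF10Ca1a it rose by 4.93 (SE 0.0680, edgeR adjusted p 1.53e-15), or 30.4-fold, against MCF10A and by 2.29 (SE 0.0556, edgeR adjusted p 3.44e-13), or 4.90-fold, against MCF10AT1. Of 17910 genes, 430 had a larger rise in MCF10Ca1a against MCF10A and 522 in MCF10AT1 against MCF10A.

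EGR1 (chr5:138465490-138469315, plus strand) had 59.8, 49.2 and 48.7 TPM in MCF10A, 130.03, 125 and 128 TPM in MCF10AT1 and 73.5, 71.2 and 70.6 TPM in MCF10Ca1a. MCF10AT1 was highest and MCF10Ca1a intermediate, with no overlap. The log2 change was 1.43 (SE 0.0564, edgeR adjusted p 9.21e-11), or 2.69-fold, in MCF10AT1 against MCF10A and 0.34 (SE 0.0561, edgeR adjusted p 6.55e-05) in MCF10Ca1a against MCF10A. Against MCF10AT1, EGR1 in MCF10Ca1a fell by 1.09 on the log2 scale (SE 0.0562, edgeR adjusted p 4.66e-10). Both CArG boxes printed above belong to this gene, and their part in its level was not tested.

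IER3 (chr6:30743199-30744554, minus strand, GENCODE 29 on GRCh38), the most abundant member in every line, had 234, 204 and 188 TPM in MCF10A, 212, 215 and 203 TPM in MCF10AT1 and 454, 441 and 452 TPM in MCF10Ca1a. On the TPM scale MCF10A and MCF10AT1 overlapped and every MCF10Ca1a library was higher. In the count fit IER3 rose by 0.94 (SE 0.0517, edgeR adjusted p 6.54e-10) in MCF10Ca1a against MCF10A and by 0.76 (SE 0.0516, edgeR adjusted p 7.67e-09) against MCF10AT1. The rise of 0.18 in MCF10AT1 against MCF10A (SE 0.0513, edgeR adjusted p 0.00781) was not called in the 3 fits on TPM, where it was 0.02.

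**Figure D3:**
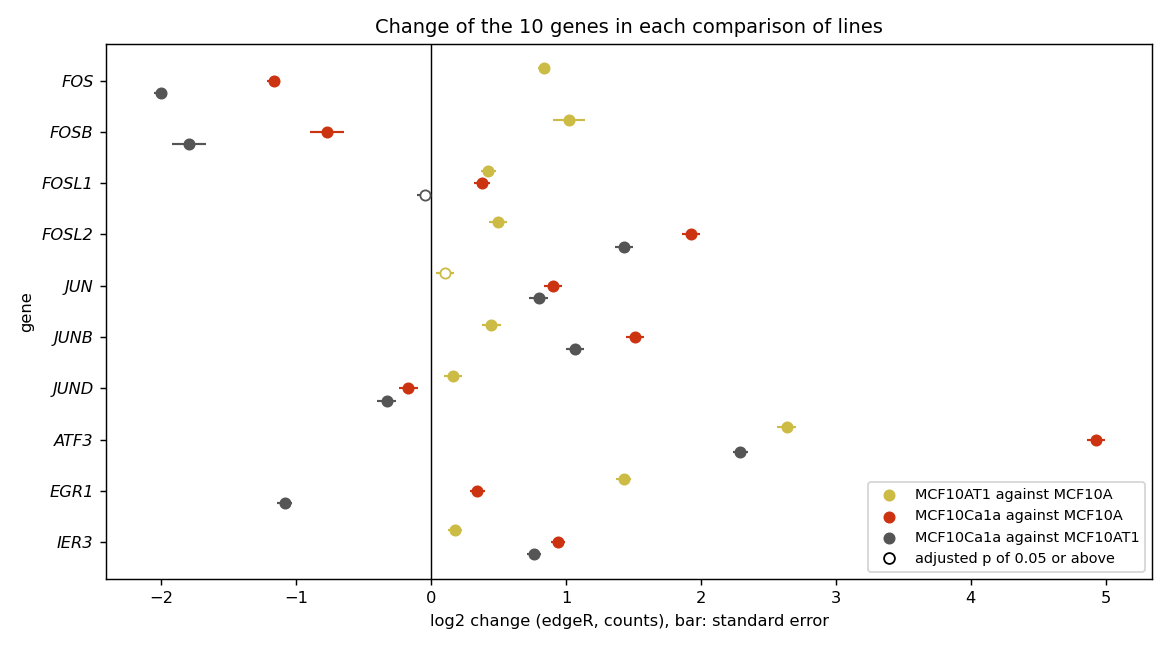
Log2 change of the 10 genes on estimated counts (horizontal axis) in the 3 comparisons of lines, with bars for the standard error derived from edgeR's F statistic. Open points had an adjusted p of 0.05 or above. ATF3 stands farthest to the right at 4.93 in MCF10Ca1a against MCF10A, and FOS farthest to the left at -2.01 in MCF10Ca1a against MCF10AT1.

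In counts, 9 of the 10 members rose and 0 fell in MCF10AT1 against MCF10A (JUN was not called), where 61.6% of all genes tested were called, 29.8% higher and 31.8% lower. Of these, 3 changed at least 2-fold (FOSB, ATF3 and EGR1), beside 18.0% of all genes. In MCF10Ca1a against MCF10A all 10 were called, 7 higher and 3 lower (FOS, FOSB and JUND), beside 80.9% of all genes, 39.0% higher and 41.9% lower, and 4 passed 2-fold (FOS, FOSL2, JUNB and ATF3), beside 42.9%. In MCF10Ca1a against MCF10AT1, 5 rose, 4 fell (FOS, FOSB, JUND and EGR1) and FOSL1 was not called, beside 78.4% of all genes, 38.0% higher and 40.3% lower, and 6 passed 2-fold, beside 37.7%. The number of members called is near the background in the last 2 comparisons. The members' median log2 change was 0.47, 0.64 and 0.36, beside -0.00, -0.05 and -0.04 for all genes tested.

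On log2(TPM + 1), 2, 6 and 7 members were called and changed at least 2-fold in the 3 comparisons, beside 3, 4 and 6 on counts. The share of all genes that did so on the TPM scale was not computed, so these 2, 6 and 7 have no background beside them. FOSB in MCF10AT1 against MCF10A and EGR1 in MCF10Ca1a against MCF10AT1 were under 2-fold there, and JUN and IER3 passed it in both comparisons of MCF10Ca1a. On the same scale, the median of all genes moved to -0.07, 0.06 and 0.13 in the 3 comparisons, and higher calls made up 36.2% of calls in MCF10AT1 against MCF10A and 61.6% in MCF10Ca1a against MCF10AT1, beside 48.4% and 48.5% on counts. Relative to that median, the TPM change of JUN in MCF10AT1 against MCF10A was 0.01 and that of JUND 0.02, and the change of FOSL1 in MCF10Ca1a against MCF10AT1 was 0.04. The directions of FOS, FOSB, FOSL2, JUNB, ATF3 and EGR1 were the same in every comparison under each of the 20 alternatives run.

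The transcripts behind the gene values were compared as shares of each gene's estimated counts. Reads are divided between overlapping transcripts by estimate, and the shares of a gene add up to the whole, so a fall of 1 transcript raises the others. Of the members' transcripts, 37 from 8 genes could be tested among 77143 in all, with limma on log2 ratios that set each transcript against the gene's other transcripts. In MCF10AT1 against MCF10A, limma called 0 at an adjusted p under 0.05 (2.31% of all transcripts were called), 6 at an unadjusted p under 0.05, and 1 at an adjusted p with a pseudocount of 5 or a minimum mean of 50 counts. In MCF10Ca1a against MCF10A 13 were called, beside 18.7% of all (8 without MCF10Ca1a replicate 2), and in MCF10Ca1a against MCF10AT1 11 were called, beside 14.1%. The shares of all transcripts are for adjusted p-values in the main fit. They were not computed for the unadjusted p or the changed settings, so those counts have no background.

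FOSB showed the largest such difference. FOSB-203, whose annotated coding sequence of 195 codons lacks the 9 core codons printed above, had 381, 438 and 674 estimated counts in MCF10A, 607, 536 and 404 in MCF10AT1 and 0 in all 3 MCF10Ca1a libraries. That is 33.9 ± 3.62% (SD, n = 3) of the gene's counts in MCF10A against 18.0 ± 4.31% for MCF10AT1. In MCF10Ca1a it was listed at 0 in every library, against FOSB totals that were themselves lower. Its share was lower in MCF10Ca1a than in MCF10A (limma adjusted p 2.91e-06) and MCF10AT1 (limma adjusted p 7.00e-06), and both calls were made in all 12 alternatives.

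FOSB-201, which codes for the full 338 codons, took 25.8 ± 5.27%, 24.4 ± 4.80% and 57.7 ± 16.7% of FOSB counts in MCF10A, MCF10AT1 and MCF10Ca1a (SD, n = 3). Its share was called higher in MCF10Ca1a than in MCF10A (limma adjusted p 0.0312) and MCF10AT1 (limma adjusted p 0.0323), but each call was lost in 6 of 12 alternatives, with adjusted p up to 0.0947 and 0.1001. Against MCF10A, leaving out any 1 MCF10A library, MCF10AT1 replicate 2 or MCF10Ca1a replicate 2 ended the call. Against MCF10AT1, leaving out any 1 MCF10AT1 library, MCF10A replicate 2 or MCF10Ca1a replicate 2 did so. FOSB-206 ranged from 0 to 847 counts within the same 9 libraries and was not called in any comparison. Summed over transcripts whose coding sequence holds the core codons, the share of FOSB counts in the MCF10A libraries was 42.0, 47.0 and 35.8%. In MCF10AT1 it was 64.8, 60.3 and 71.6%, and MCF10Ca1a had 94.2, 94.9 and 90.5%. The 3 lines did not overlap in that sum, which was formed after the values were seen and is given with no test. It took positions alone and did not check the reading frame. The rise was not particular to FOSB. In the same order of lines, the mean sum was 53.2, 64.4 and 78.8% for ATF3 and 86.5, 86.9 and 94.5% for FOSL1. For FOS it was 92.5, 94.4 and 95.8%, and for FOSL2 at least 99.96% in every library.

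FOSL1-201, the full FOSL1 transcript, took 84.0 ± 0.682% of counts in MCF10A, 84.8 ± 0.633% in MCF10AT1 and 91.3 ± 1.22% in MCF10Ca1a (SD, n = 3). The share was higher in MCF10Ca1a than in MCF10A (log2 ratio change 1.01, limma adjusted p 0.00254) and MCF10AT1 (0.92, limma adjusted p 0.00507). FOSL1-203, a transcript picked here after its values were seen, also lacks the core codons and took 9.09, 7.68 and 2.54% in the same order. Its log2 ratio fell by 1.96 in MCF10Ca1a against MCF10A (limma adjusted p 0.00118) and by 1.70 against MCF10AT1 (limma adjusted p 0.00311). FOSL2-201 took 89.5 ± 1.22%, 92.3 ± 0.923% and 97.9 ± 0.452% of FOSL2 counts, and its log2 ratio was higher in MCF10Ca1a by 2.51 (limma adjusted p 0.000248) and 2.00 (limma adjusted p 0.000995).

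For ATF3, no count was assigned in any library to the 2 transcripts that begin at the upstream start of the annotation (chr1:212565334), where a count of 0 allows up to 3. The 4 transcripts that begin between chr1:212608628 and chr1:212608915 held a mean of 76.4% of ATF3 counts in MCF10A, 81.9% in MCF10AT1 and 94.4% in MCF10Ca1a. Outside them, ENST00000492118, a non-coding ATF3 transcript picked here after its values were seen, went from 19.1% to 13.5% and 1.17%. Its log2 ratio in MCF10Ca1a fell by 4.29 against MCF10A (limma adjusted p 0.000179) and by 3.67 against MCF10AT1 (limma adjusted p 0.000525), and such a fall raises the shares of the others. Among the 4, ATF3-202, the coding transcript with 181 codons, took 48.8 ± 3.40%, 59.3 ± 6.66% and 74.3 ± 0.559% (SD, n = 3). In MCF10Ca1a its log2 ratio exceeded that of MCF10A by 1.60 (limma adjusted p 0.00198) and that of MCF10AT1 by 0.98 (limma adjusted p 0.0210), the latter lost without any 1 of the MCF10Ca1a libraries (adjusted p up to 0.0569). Another of the 4, a retained-intron transcript of ATF3 (ENST00000465155), took 27.7 ± 1.60%, 22.1 ± 2.14% and 20.0 ± 0.220%, a fall of 0.63 in log2 ratio from MCF10A to MCF10Ca1a (limma adjusted p 0.0156).

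The main transcripts of the other genes held nearly all counts in every line. FOS-201 took 89.8 ± 2.38% in MCF10A, 92.3 ± 0.457% in MCF10AT1 and 94.3 ± 0.605% in MCF10Ca1a, and the call in MCF10Ca1a against MCF10A (limma adjusted p 0.0277) was lost in 5 of 12 alternatives (adjusted p up to 0.0890), among them those without replicate 2 or 3 of either line. IER3-201 took 96.3 ± 0.755%, 94.4 ± 0.915% and 97.97 ± 0.183%, higher in MCF10Ca1a than in MCF10AT1 by a log2 ratio of 1.51 (limma adjusted p 0.00405). The call for IER3-201 against MCF10A (limma adjusted p 0.0302) was lost in 7 of 12 (adjusted p up to 0.0963), among them those without MCF10A replicate 2 or 3, MCF10AT1 replicate 2 or any MCF10Ca1a library. JUN-201 and JUND-201 took at least 99.2% in every library. JUNB and EGR1 have a single transcript each and no share to compare.

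**Figure D4:**
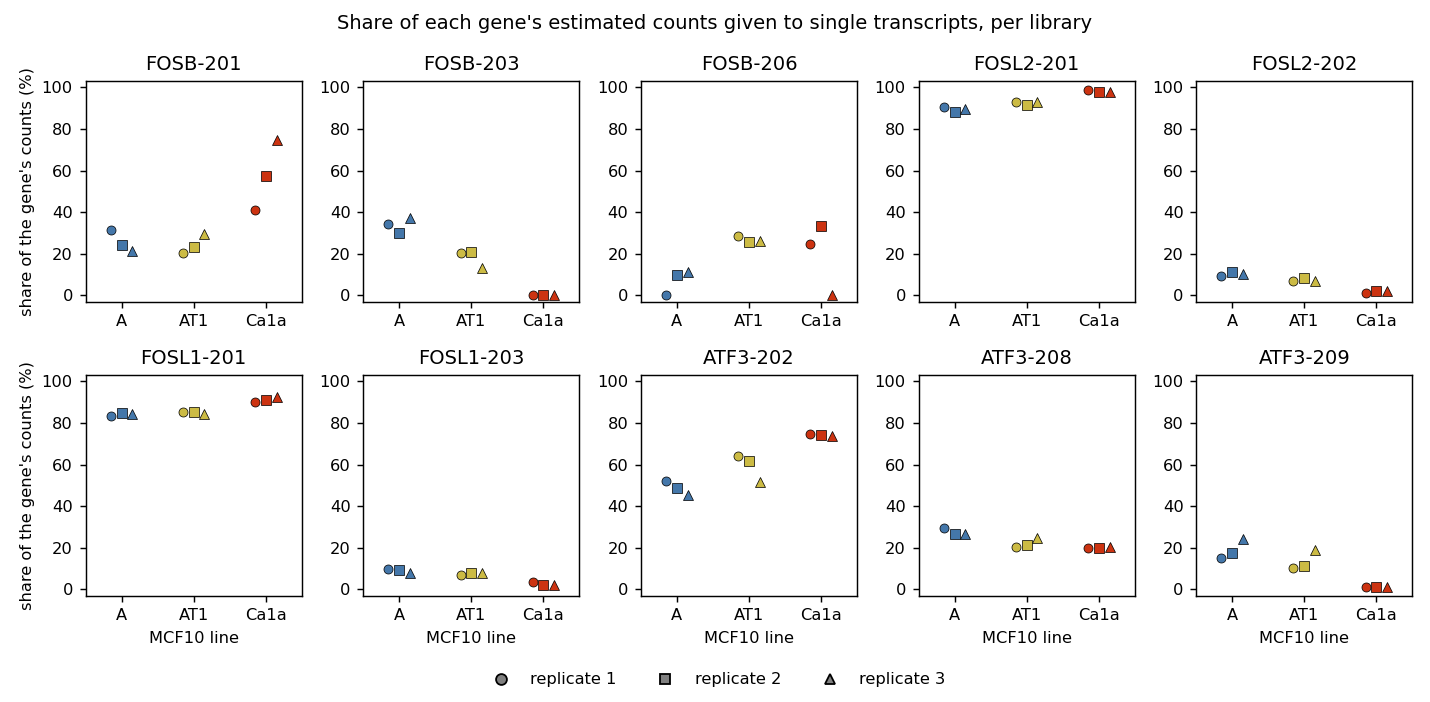
Share of a gene's estimated counts (vertical axis, percent) assigned to 10 transcripts of FOSB, FOSL2, FOSL1 and ATF3 in each library; colours mark the lines and symbols the replicates. FOSB-203 goes from 30.1 to 37.3% in MCF10A to 0 in MCF10Ca1a, while FOSB-201 spreads from 41.1 to 74.6% among the MCF10Ca1a replicates.

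Further leucine zipper factors that can pair with AP-1 proteins formed a list of 11, of which 10 were tested (BATF had at most 4 counts). In MCF10Ca1a against MCF10A, 5 rose and 4 fell, near the 39.0% and 41.9% of all genes, with a median log2 change of 0.04. The small MAF factors MAFG and MAFF rose by 1.59 and 1.55 (edgeR adjusted p 2.29e-12 and 7.08e-12), while JDP2, a repressive partner of JUN, fell by 2.75 (edgeR adjusted p 7.04e-09). JDP2 had 309 to 385 counts in MCF10A and 20 to 32 in MCF10Ca1a. In MCF10AT1 against MCF10A, 3 rose and 4 fell, beside 29.8% and 31.8% of all genes, with MAFF at 0.67. In MCF10Ca1a against MCF10AT1, 5 rose and 5 fell, beside 38.0% and 40.3%, with MAFG at 1.95 and JDP2 at -2.56.

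Of 24 other immediate early genes, 17 rose and 2 fell in MCF10AT1 against MCF10A, beside 29.8% and 31.8% of all genes. Their median log2 change was 0.77, beside -0.00 for all genes. EGR3, a relative of EGR1, rose by 3.42 (edgeR adjusted p 2.45e-10), from 29, 29 and 44 counts in MCF10A to 350, 340 and 383 in MCF10AT1. DUSP1, a phosphatase that turns off MAP kinases, fell by 0.87 (edgeR adjusted p 8.97e-09), from 221 to 108 TPM on average. In MCF10Ca1a against MCF10A, 14 rose and 6 fell, beside 39.0% and 41.9% of all genes, with a median of 0.49. Among those whose higher line averaged 100 or more counts, EGR3 and the nuclear receptor NR4A1 rose by 2.73 and 2.67 (edgeR adjusted p 1.15e-09 and 1.31e-10), whereas the kinase SGK1 and the antiproliferative gene BTG2 fell by 3.09 and 1.51 (edgeR adjusted p 5.72e-14 and 6.95e-11). In MCF10Ca1a against MCF10AT1, 11 rose and 11 fell, beside 38.0% and 40.3%, with KLF10 at 0.82 and SGK1 at -3.31 as the largest by the rule.

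Of 23 upstream regulators, which are kinases, transcription factors, ubiquitin ligases and other proteins that control or modify the members, 1 rose and 11 fell in MCF10AT1 against MCF10A, beside 29.8% and 31.8% of all genes. None of the calls reached 2-fold, beside 18.0% of all genes. The rise was RPS6KA1, a kinase below ERK, at 0.27 (edgeR adjusted p 0.00229), and the largest fall was ELK4, a serum response factor partner, at -0.70 (edgeR adjusted p 6.92e-07). In MCF10Ca1a against MCF10A, 7 rose and 14 fell, beside 39.0% and 41.9% of all genes. ITCH, a ubiquitin ligase that targets JUN proteins, and MAP2K2, the kinase MEK2, rose by 0.98 and 0.85, and MAP2K4, a JNK kinase, and ELK3 fell by 1.16 and 0.84 (edgeR adjusted p from 4.41e-11 to 1.42e-08). In MCF10Ca1a against MCF10AT1, 8 rose and 11 fell, beside 38.0% and 40.3%, with ELK4 at 1.17 and MAP2K4 at -1.23.

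Of 24 genes known as AP-1 targets, 23 were tested (MMP3 had at most 19 counts), with rises and falls in each comparison. In MCF10AT1 against MCF10A 9 rose and 9 fell, beside 29.8% and 31.8% of all genes. In MCF10Ca1a, 10 rose and 10 fell against MCF10A, near the 39.0% and 41.9% of all genes, and 12 rose and 9 fell against MCF10AT1, beside 38.0% and 40.3%. The cytokine LIF rose by 4.15 and the EGF receptor ligand HBEGF by 3.52 in MCF10Ca1a against MCF10A (edgeR adjusted p 3.34e-15 and 5.20e-15), with HBEGF at 10.1, 16.6 and 124 TPM in the 3 lines. MMP9, a matrix protease, had 915 to 1090 counts in MCF10A, 0 or 1 in MCF10AT1 and 3 or 4 in MCF10Ca1a, and was called lower in both derived lines. The cornified envelope gene IVL fell by 4.48 in MCF10Ca1a against MCF10A (edgeR adjusted p 2.30e-10), and IL6 rose by 2.68 in MCF10AT1 against MCF10A (edgeR adjusted p 4.81e-07).

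**Figure D5:**
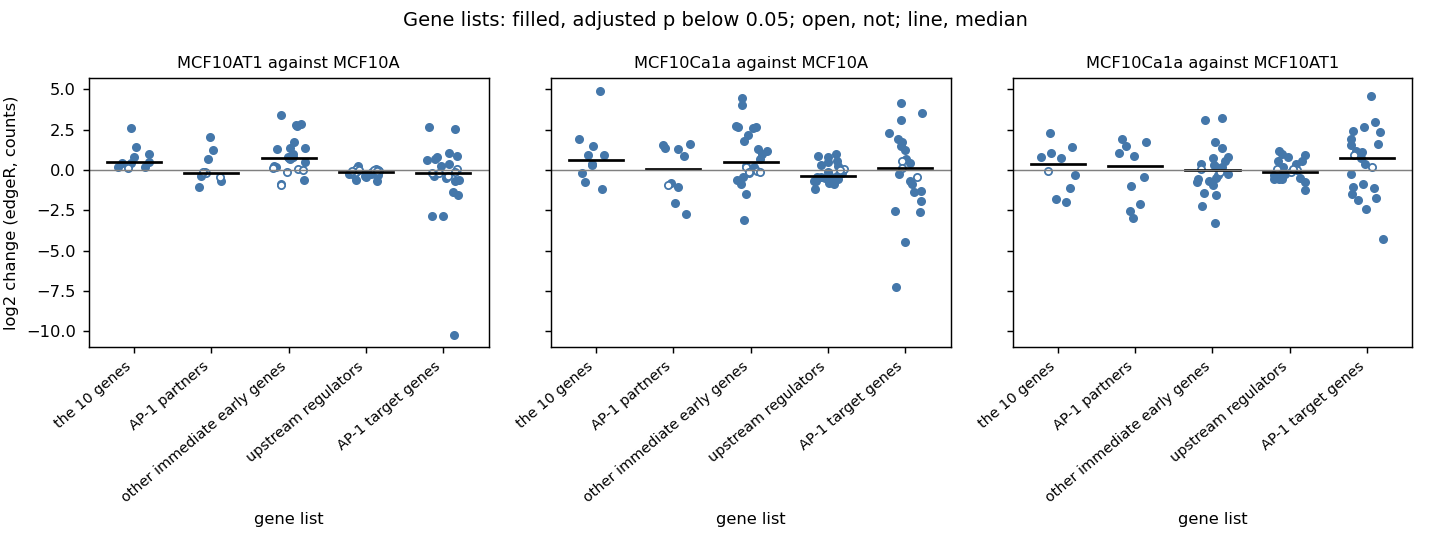
Log2 change on estimated counts (vertical axis) of the 10 genes and of the 4 gene lists in the 3 comparisons; filled points had an edgeR adjusted p below 0.05, and black lines mark medians. Immediate early genes have a median of 0.77 in MCF10AT1 against MCF10A and -0.03 in MCF10Ca1a against MCF10AT1; in the first 2 comparisons the lowest point is MMP9, whose fitted value depends on the prior count.

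The genes whose pattern over the 9 libraries lay nearest to the member of each family with the highest mean TPM over all 9 libraries were found by the root mean square distance of centred log2 CPM among 11998 genes. For FOS they were KCTD14 (distance 0.0718) and GASK1B (0.0824), for JUNB KLHL21 (0.0522) and BABAM2 (0.0558), and for ATF3 ACP7 (0.105) and VGF (0.141). For EGR1 they were RGS3 (0.0763) and SH2D5 (0.0818), and for IER3 HPS5 (0.0290) and LIMA1 (0.0351). KCTD14, for example, had 10.8, 19.5 and 5.25 TPM in the 3 lines, and RGS3, a regulator of G protein signalling, had 5.77, 14.7 and 8.72 TPM. The 9 libraries share 3 lines, so such likeness rests on few independent values.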

How the data were processed

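The 9 libraries were grouped by the cell line in the labels. The authors deposited estimated counts per gene and per transcript, length-scaled and scaled gene counts, and TPM values. Salmon and hg38 are named in the submitters' processing notes, and the annotation and counting options are not given in the sources used here. Here the deposited estimated counts were rounded and tested with edgeR 4.0.16 in R 4.3.3 (filterByExpr with minimum count 10 and total 15, TMM, quasi-likelihood test, all 9 libraries in 1 fit). Transcript shares were tested with limma 3.58.1 on log2 ratios with a pseudocount of 0.5, for transcripts with a mean of at least 10 counts in a line. Deposited TPM served for levels and shares. Depth was 32.9 to 69.5 M counts per library, so MCF10Ca1a has the larger counting error.

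Positions are from GENCODE 29 on GRCh38 and may differ from the authors' annotation, since 1 JUN transcript in their table is not in that release. Promoter windows are from RefSeq.

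The members and lists were chosen with earlier results of these data known. Named list genes are the 2 largest rises and falls in MCF10Ca1a against MCF10A and the largest in each other comparison, among called genes whose higher line averaged 100 or more counts. Of these list genes, 1 is not reported here. Transcripts are named from a share of 20% in a line. Alternatives were DESeq2 1.42.0 (size factors, Wald test), no filter, other count tables, a replicate block, thinning, limma on log2(TPM + 1) and log2(TPM + 0.1), 2 lines only, and each library left out. On simulated data with 200 of 17910 genes changed in MCF10AT1 against MCF10A, edgeR recovered 146 with 5 false calls. In the deposited data 61.6% of genes were called in that comparison, and recovery at such a share was not tested.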

Additional observations from a re-analysis of the deposited data

How the results depend on the processing

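Of 600 log2 changes of members under the alternatives, 561 kept direction and side of the threshold, 27 lost their call in the same direction, 1 gained one and 11 changed direction. None of the 11 was called under the alternative, and 3 of them, all JUND in MCF10AT1 against MCF10A, had been called. FOSL1 in MCF10Ca1a against MCF10AT1 turned to 0.00168 with DESeq2 size factors, 0.0017 in the DESeq2 Wald test, 0.168 on log2(TPM + 1) with either filter and 0.17 on log2(TPM + 0.1). On the same TPM scales JUN in MCF10AT1 against MCF10A turned to -0.0568 and -0.0586, and JUND to -0.0466 and -0.0473. The cause was not tested.

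Called member transcripts in MCF10Ca1a against MCF10A went from 13 to 8 with the replicate block, and from 8 (without MCF10Ca1a replicate 2) to 15 (without MCF10Ca1a replicate 1) with 1 library left out. The block also ended the call of the retained-intron transcript of ATF3 in that comparison. In MCF10AT1 against MCF10A they went from 0 to 1 with a pseudocount of 5 and to 1 with a minimum mean of 50 counts. The replicate block left 9, 10 and 9 members called in the 3 gene comparisons. The shares of all transcripts and genes called under these settings are not given here. Same-numbered libraries correlated above 0.1 in 1 of 9 pairs, so the numbers were not taken to pair them, and 4 of 9 libraries correlated best with their own number. No pair of libraries looked like 1 library held in 2 copies, since chi-square per degree of freedom between replicates ran from 2.42 to 68.3.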
